A study of Homo sapiens with 9 samples.

Results

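ND1, ND2, ND3, ND4, ND4L, ND5, ND6 and ATP8 are 8 protein genes of the mitochondrial genome: the 7 ND genes encode the core membrane subunits of respiratory complex I (NADH:ubiquinone oxidoreductase), and ATP8 encodes a small membrane subunit of ATP synthase. They were taken from the count table by gene symbol and make 8 of its 25382 genes. The rule used no values, but the list was chosen with earlier results of these data known. The count table writes the symbols without the prefix MT-. With DsiRNA 13.6, one of the reagents used against TBX3, ATP8, ND4L, ND4 and ND3 were higher than in control cells and ND5 was lower. With DsiRNA 13.8, the other reagent, ND2, ATP8, ND3, ND1 and ND5 were higher and ND6 was lower. ATP8 and ND3 passed the test with both reagents in the same direction, ND5 passed with both in opposite directions, and ND1, ND2, ND5 and ND6 differed between the reagents. Of all tested genes, 49.9% were called with 13.6, 55.5% with 13.8 and 61.1% between the reagents. With 13.6 every call but that of ATP8, and with 13.8 those of ND5 and ND6, were lost when certain single libraries were left out. Against control the largest difference of the 8 genes was that of ND2 with 13.8, which was 43.9% higher than in control cells, and between the reagents it was that of ND5.

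The study asked how gene expression differs in 501mel cells, a human melanoma line, when TBX3, a T-box transcription factor, is knocked down. A first group of 3 libraries came from cells that were given DsiRNA 13.6 against TBX3, a second group of 3 from cells given DsiRNA 13.8 against TBX3, and a group of 3 controls from cells given the control DsiRNA NC1. DsiRNAs are short double-stranded RNAs that Dicer processes before they direct RNA interference; in all 9 libraries they were delivered by lipofection and the cells were lysed for total RNA 24 h later, so the controls carry the lipofection as well. The labels call the libraries biological replicates without saying how the cultures were separated. The p-values here therefore set group differences against the spread between these libraries of 1 cell line.

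The mitochondrial genome is a small circular DNA whose genes lie on both strands. Both strands are transcribed as long precursors by the single-subunit polymerase POLRMT with the factors TFAM and TFB2M, and the precursors are cut into separate mRNAs, mostly at the tRNAs that punctuate the protein genes, so that mRNAs made from 1 precursor can still differ in level through processing and stability. The ND subunits form the proton-translocating membrane arm of complex I together with nuclear-encoded subunits, and the complex can be assembled only when both genomes supply their parts.

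Of the 8 genes, 7 are read from the heavy-strand transcript and ND6 alone from the light-strand transcript. In GENCODE release 29 on GRCh38, ND1 is at chrM:3307-4262, ND2 at chrM:4470-5511, ATP8 at chrM:8366-8572, ND3 at chrM:10059-10404, ND4L at chrM:10470-10766, ND4 at chrM:10760-12137, ND5 at chrM:12337-14148 and ND6 at chrM:14149-14673 on the minus strand. Each is a single coding exon with no intron. In 4 of the 8 genes, ND1, ND2, ND3 and ND4, the DNA holds only the first part of the stop codon, which polyadenylation of the mRNA is known to complete. The coding sequences of ATP8 and ATP6, which share 1 mRNA, overlap, as do those of ND4L and ND4, which share another. These overlaps bear on the counts, so the stretches are shown here from the coding strand with the shared bases in capitals: the whole of ATP8 (chrM:8366-8572, plus strand), the start of ATP6 (chrM:8527-8586), the end of ND4L (chrM:10707-10766) and the start of ND4 (chrM:10760-10819), with 46 bases of ATP8 in common with ATP6 and 7 bases of ND4L in common with ND4.
ATP8: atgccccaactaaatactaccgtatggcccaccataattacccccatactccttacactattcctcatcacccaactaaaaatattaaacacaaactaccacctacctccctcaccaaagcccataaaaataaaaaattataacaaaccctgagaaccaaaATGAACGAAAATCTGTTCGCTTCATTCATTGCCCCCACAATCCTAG
ATP6 start: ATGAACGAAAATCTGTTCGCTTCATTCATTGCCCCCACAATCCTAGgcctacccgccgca
ND4L end: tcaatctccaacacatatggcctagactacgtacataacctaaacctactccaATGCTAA
ND4 start: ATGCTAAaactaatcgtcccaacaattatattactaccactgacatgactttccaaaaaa
The shared bases are read in different frames by the members of each pair, and no source used here says how reads in them were assigned.

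ND6 and its neighbour ND5 show the other feature that sets the strands apart. Their first 60 coding bases are printed with every G in capitals, ND6 from chrM:14614-14673 on the minus strand and ND5 from chrM:12337-12396 on the plus strand.
ND6 start: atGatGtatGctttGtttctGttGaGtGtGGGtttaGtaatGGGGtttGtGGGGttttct
ND5 start: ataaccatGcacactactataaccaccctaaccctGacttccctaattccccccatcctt
The ND6 stretch holds 21 G and 3 C, and the ND5 stretch 2 G and 26 C. Over its whole length ND6 is 35.6% G and 7.05% C, whereas the other 7 genes are 6.28% to 12.1% G and 29.5% to 36.0% C. The library kit keeps strand information, but whether the counting used it is not given in the sources used here. If it did not, ND6 reads and reads of heavy-strand RNA that runs across ND6 cannot be told apart.

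The 9 libraries held between 38105026 and 52272147 counted reads, and all 8 genes passed the filter on low counts with ample depth, ND6 having the fewest reads (3227 to 4445 a library) and ND4 the most (163672 to 270483). TBX3 itself was at 46.4, 41.0 and 39.4 CPM (counts scaled to library size) in the 13.6 libraries and 36.1, 33.7 and 36.2 CPM in the 13.8 libraries, against 88.6, 83.8 and 84.02 CPM in the control libraries. Both reagents thus lowered it without overlap (log2 fold change -1.02 ± 0.07 SE with 13.6 and -1.27 ± 0.07 with 13.8), and it was 0.26 ± 0.07 higher with 13.6 than with 13.8 on the log2 scale. Of 14731 genes tested with edgeR's quasi-likelihood test, 7357 with 13.6 and 8169 with 13.8 passed a Benjamini-Hochberg adjusted p of 0.05, so that a call of a single gene is common here. All 7 melanocyte lineage markers were detected, with a summed level of 13811 to 14965 CPM with 13.6, 17292 to 18105 CPM with 13.8 and 13333 to 15343 CPM in control cells. The higher sum with 13.8 was mostly TYRP1, which averaged 7831 CPM with 13.8 against 3604 CPM in control cells. With 13.8, 3 of the 7 markers were called higher and 3 lower, the latter MITF (log2 fold change -0.97), SOX10 (-0.35) and MLANA (-0.27). With 13.6, 2 were called higher, TYR (1.09) and SOX10 (0.32), and 3 lower, DCT (-0.49), TYRP1 (-0.42) and MLANA (-0.20). The 5 fibroblast markers summed to 3.93 to 5.07 CPM with 13.6, 14.8 to 17.9 with 13.8 and 4.43 to 5.98 in controls. The 4 leukocyte markers, mostly CD68, summed to 98.8 to 105 CPM with 13.6, 75.7 to 81.4 with 13.8 and 72.5 to 77.8 in controls. The sum of 4 keratinocyte markers, 1 of them at 0 in every library, was 39.3 to 46.2 CPM over all groups, mostly KRT10. The 3 endothelial markers stayed under 1 CPM in sum in every library.

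Together the 8 genes took up 1.04%, 1.09% and 0.972% of all counted reads in the 13.6 libraries and 1.19%, 1.12% and 1.09% in the 13.8 libraries, against 0.955%, 1.05% and 0.843% in the control libraries. The 13.8 libraries were above all controls, whereas the 13.6 libraries overlapped them. The share averaged 1.04% ± 0.06 with 13.6, 1.13% ± 0.05 with 13.8 and 0.951% ± 0.106 in control cells (SD, n = 3 each). The difference from control was 0.0845 percentage points with 13.6 (two-sided exact permutation p = 0.3) and 0.180 with 13.8 (exact permutation p = 0.1, the smallest that 3 against 3 libraries allow), and the 6 knockdown libraries exceeded the controls by 0.132 points (exact permutation p = 0.0714, where the smallest possible is 0.0238). In bulk RNA a higher share from more mitochondrial RNA in each cell and one from a shift in the cells present cannot be told apart. Of 6 nuclear noncoding RNAs listed to gauge library composition, 4 are in the table, and their sum differed between the groups: MALAT1, NEAT1, RMRP and RPPH1 summed to 770 to 872 CPM with 13.6, 1663 to 1823 CPM with 13.8 and 1275 to 1684 CPM in control cells, and their part in the results for the 8 genes was not tested.

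Set against control, 4 of the 8 genes were higher and 1 was lower with 13.6, and 3 did not pass; 24.9% of all tested genes were called higher and 25.0% lower in that comparison. With 13.8, 5 were higher, 1 was lower and 2 did not pass, beside 27.5% of all genes called higher and 27.9% lower. The median log2 fold change of the 8 genes was 0.22 with 13.6 and 0.32 with 13.8, while the medians over all tested genes were -0.01 and 0.01. The medians of the 8 genes moved with single control libraries. With 13.6 and 13.8 they were 0.15 and 0.31 without control replicate 1, and 0.27 and 0.38 without control replicate 2. Without control replicate 3 they were 0.16 and 0.22. For the mean of both reagents against control, 4 genes were higher, none was lower and 4 did not pass, where 23.3% of all genes were called higher and 26.9% lower; the median of the 8 genes was 0.21 (0.13 without control replicate 3) against -0.01 for all genes. Both comparisons use the same 3 control libraries, so that they are not independent of each other. By size, ATP8, the most changed of the 8 genes with 13.6, ranked 5741 of 14731 genes by absolute log2 fold change, and ND2, the most changed with 13.8, ranked 4962.

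**Figure D1:**
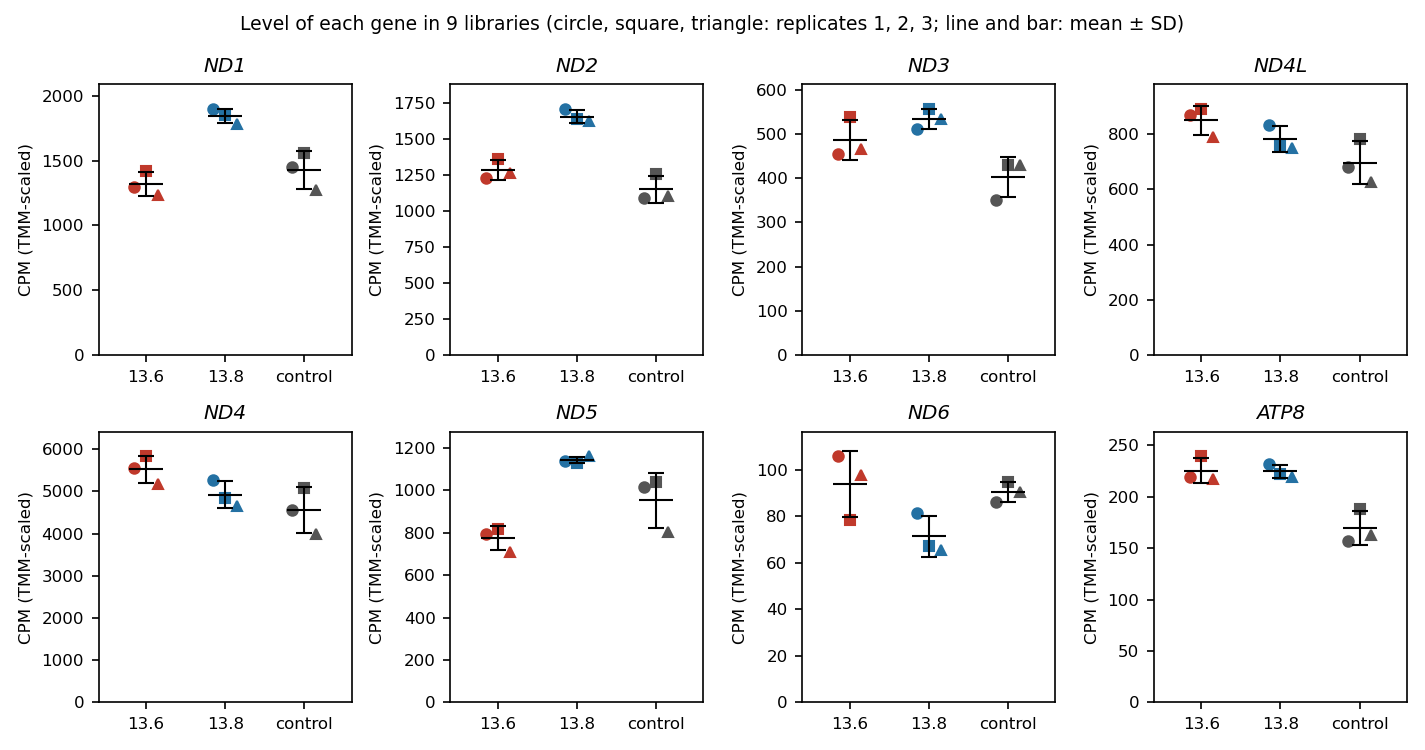
Level of each of the 8 genes in each library, in CPM with TMM-scaled library sizes (y axes start at 0), by group on the x axis; symbols are single libraries and the line and bar give the mean ± SD of 3. ATP8 lies above all controls with both reagents, ND1, ND2 and ND5 split 13.6 from 13.8, and ND6 in the 13.8 libraries (65.6 to 81.6 CPM) lies below the controls (85.9 to 94.6 CPM).

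ATP8, whose protein sits at the membrane end of the peripheral stalk of ATP synthase, was the clearest case with both reagents. It was at 219.7, 239 and 217 CPM in the 13.6 libraries and at 232, 223 and 219.6 CPM in the 13.8 libraries, against 157, 188 and 163 CPM in the control libraries. Every knockdown library lay above every control library. The level averaged 225 ± 12.2 CPM with 13.6 and 224.7 ± 6.40 CPM with 13.8, against 169.5 ± 16.6 CPM in control cells (SD, n = 3 each). That is a log2 fold change of 0.41 ± 0.07 SE (33.0% higher) with 13.6, at an adjusted p of 0.000385 in edgeR's quasi-likelihood test, and of 0.41 ± 0.07 (32.6% higher) with 13.8, at an edgeR adjusted p of 0.00034. Between the reagents the log2 difference was 0.00 ± 0.07 (edgeR adjusted p = 0.962). Leaving out any single library kept ATP8 past the threshold in both comparisons with control.

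ND1, the subunit that contributes to the ubiquinone-binding site where the membrane arm meets the peripheral arm, differed between the reagents. It was at 1296, 1423 and 1236 CPM in the 13.6 libraries and 1897, 1851 and 1784 CPM in the 13.8 libraries, against 1450, 1559 and 1274 CPM in the control libraries. The 13.8 libraries stood above all others, and the 13.6 libraries overlapped the controls. With 13.8 ND1 was higher than control by a log2 fold change of 0.37 ± 0.08 SE (edgeR's quasi-likelihood test, adjusted p = 0.00178). With 13.6 the log2 fold change was -0.11 ± 0.08 (edgeR adjusted p = 0.264), and it passed as lower only without control replicate 3 (-0.19, edgeR adjusted p = 0.0412). The direct comparison of 13.6 with 13.8 gave -0.48 ± 0.08 (edgeR adjusted p = 0.000188).

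ND2, ND4 and ND5 are the 3 large subunits that resemble cation antiporters and carry proton channels along the membrane arm, and they did not move together. ND2 was at 1231, 1363 and 1263 CPM in the 13.6 libraries and 1708, 1637 and 1624 CPM in the 13.8 libraries, against 1089, 1261 and 1105 CPM in the control libraries. The 13.8 libraries exceeded all others without overlap, and the 13.6 libraries overlapped the controls in 1 library on each side. With 13.8 the log2 fold change was 0.52 ± 0.07 SE (edgeR's quasi-likelihood test, adjusted p = 4.17e-05), and with 13.6 it was 0.16 ± 0.07 (edgeR adjusted p = 0.0854). The value with 13.6 passed without control replicate 2 (0.23, edgeR adjusted p = 0.0211). The reagents differed by -0.37 ± 0.07 for 13.6 against 13.8 (edgeR adjusted p = 0.00069).

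ND4, the antiporter-like subunit in the middle of the arm, was at 5551, 5831 and 5184 CPM with 13.6 and 5275, 4839 and 4659 CPM with 13.8, against 4554, 5093 and 4002 CPM in the control libraries. All 13.6 libraries were above the controls, the nearest by a small margin, while the 13.8 libraries overlapped them. The log2 fold change was 0.28 ± 0.09 SE with 13.6 (edgeR's quasi-likelihood test, adjusted p = 0.0215) and 0.11 ± 0.09 with 13.8 (edgeR adjusted p = 0.308). The call with 13.6 rested on single libraries: it was 0.20 without control replicate 3 (edgeR adjusted p = 0.0576), 0.28 without 13.6 replicate 1 (edgeR adjusted p = 0.0561) and 0.24 without 13.6 replicate 2 (edgeR adjusted p = 0.0907). The direct comparison of the reagents did not pass (0.17 ± 0.09, edgeR adjusted p = 0.133).

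ND5, the antiporter-like subunit at the far end of the arm, changed in opposite directions. It was at 793, 818 and 709 CPM in the 13.6 libraries and 1137, 1129 and 1160 CPM in the 13.8 libraries, against 1016, 1039 and 804 CPM in the control libraries. The groups with 13.6 and 13.8 were far apart, and control replicate 3, the lowest control, overlapped the 13.6 range. With 13.6 ND5 fell by 18.9% relative to control (log2 fold change -0.30 ± 0.09 SE; edgeR's quasi-likelihood test, adjusted p = 0.0148). This call was lost without control replicate 2 (-0.24, edgeR adjusted p = 0.0658) and without 13.6 replicate 3 (-0.24, edgeR adjusted p = 0.0760). With 13.8 ND5 was 19.8% higher than control (0.26 ± 0.09, edgeR adjusted p = 0.027), a call lost without control replicate 3 (0.15, edgeR adjusted p = 0.0809), 13.8 replicate 2 (0.27, edgeR adjusted p = 0.0543) or 13.8 replicate 3 (0.25, edgeR adjusted p = 0.0758). The direct difference, -0.56 ± 0.09 for 13.6 against 13.8, had an edgeR adjusted p of 0.000142 and was the largest among the 8 genes.

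ND3, a small subunit with a flexible loop close to the ubiquinone-binding site, was at 456, 538 and 467 CPM with 13.6 and 511, 556 and 534 CPM with 13.8, against 351, 429 and 430 CPM in the control libraries. All 6 knockdown libraries exceeded the 3 controls. The log2 fold change was 0.27 ± 0.09 SE with 13.6 (edgeR's quasi-likelihood test, adjusted p = 0.0203) and 0.40 ± 0.09 with 13.8 (edgeR adjusted p = 0.0016). The call with 13.6 was lost without control replicate 1 (0.18, edgeR adjusted p = 0.0800) and without 13.6 replicate 2 (0.19, edgeR adjusted p = 0.115). The reagents did not differ past the threshold (-0.13 ± 0.09 for 13.6 against 13.8, edgeR adjusted p = 0.208).

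ND4L, the smallest ND subunit, encoded on the same mRNA as ND4, was at 867, 889.8 and 789 CPM with 13.6 and 834, 759 and 747 CPM with 13.8, against 679, 781 and 627 CPM in the control libraries. The 13.6 libraries lay above all controls and the 13.8 libraries overlapped them, as for ND4. The log2 fold change was 0.29 ± 0.08 SE with 13.6 (edgeR's quasi-likelihood test, adjusted p = 0.0128) and 0.16 ± 0.08 with 13.8 (edgeR adjusted p = 0.115). Without 13.6 replicate 2 the first missed the threshold (0.25, edgeR adjusted p = 0.0586), and without control replicate 2 the second passed it (0.25, edgeR adjusted p = 0.0194). The difference between the reagents was 0.12 ± 0.08 (edgeR adjusted p = 0.229).

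ND6, a small subunit next to ND1 and ND3 in the membrane arm, was at 106, 78.3 and 97.8 CPM in the 13.6 libraries and 81.6, 67.2 and 65.6 CPM in the 13.8 libraries, against 85.9, 94.6 and 90.6 CPM in the control libraries. The 13.8 libraries lay below all controls, whereas the 13.6 libraries spread to both sides of them. With 13.8 ND6 fell by 21.0% (log2 fold change -0.34 ± 0.11 SE; edgeR's quasi-likelihood test, adjusted p = 0.0167). It was the only one of the 13 mitochondrial protein genes in the table that was called lower with 13.8. The call was lost without control replicate 2 (-0.31, edgeR adjusted p = 0.0575), 13.8 replicate 2 (-0.30, edgeR adjusted p = 0.0638) or 13.8 replicate 3 (-0.29, edgeR adjusted p = 0.0655). With 13.6 the log2 fold change was 0.05 ± 0.11 (edgeR adjusted p = 0.698), and the direct comparison of 13.6 with 13.8 gave 0.39 ± 0.11 (edgeR adjusted p = 0.0065), although 13.6 replicate 2 was within the 13.8 range.

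Between the reagents, 1 of the 8 genes was thus higher with 13.6 than with 13.8, 3 were lower and 4 did not pass, beside 30.9% of all tested genes called higher and 30.2% lower; the median log2 difference of the 8 genes was -0.06 and that of all genes -0.02. This median moved with single 13.6 libraries, to -0.03 without replicate 1, -0.12 without replicate 2 and -0.04 without replicate 3. None of these 4 calls was lost when any 1 library was left out. For the mean of both reagents against control, ATP8 (0.41 ± 0.06 SE; edgeR's quasi-likelihood test, adjusted p = 0.000137), ND2 (0.34 ± 0.06, edgeR adjusted p = 0.000581), ND3 (0.34 ± 0.08, edgeR adjusted p = 0.00253) and ND4L (0.23 ± 0.07, edgeR adjusted p = 0.0215) were higher. ND4L lost this call without control replicate 1 (0.21, edgeR adjusted p = 0.0665), control replicate 3 (0.15, edgeR adjusted p = 0.0842) or 13.6 replicate 2 (0.21, edgeR adjusted p = 0.0537). ND4 missed the threshold (0.20 ± 0.08, edgeR adjusted p = 0.0549) and passed it without control replicate 2 (0.28, edgeR adjusted p = 0.0138). ND1 (0.13 ± 0.07, edgeR adjusted p = 0.154), ND5 (-0.02 ± 0.08, edgeR adjusted p = 0.85) and ND6 (-0.14 ± 0.09, edgeR adjusted p = 0.221) averaged reagents that differed from each other. So did ND2, which did not pass with 13.6 alone (0.16 ± 0.07, edgeR adjusted p = 0.0854).

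**Figure D2:**
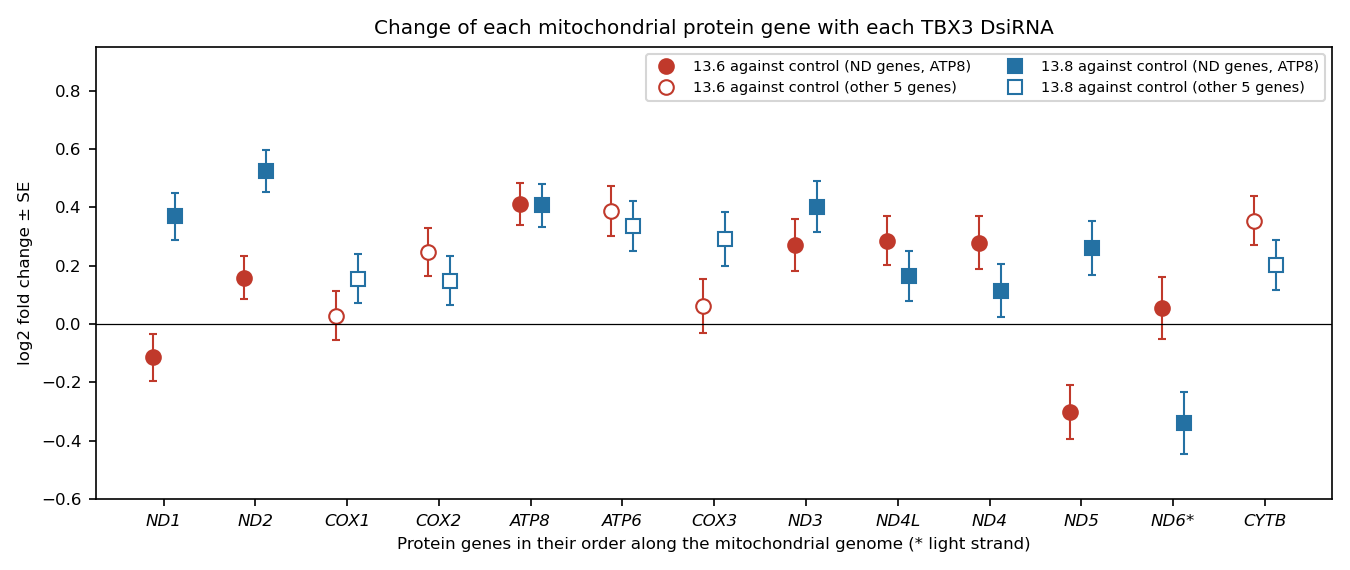
Log2 fold change ± SE from edgeR (y axis) of the 13 mitochondrial protein genes, in their order along the genome (x axis), with 13.6 (circles) and 13.8 (squares) against control; filled symbols are the ND genes and ATP8, open symbols the other 5 genes, and the asterisk marks the light-strand gene. The reagents lie together at ATP8 (0.41 each) and apart at ND1 (-0.11 and 0.37), ND5 (-0.30 and 0.26) and ND6 (0.05 and -0.34).

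Along the genome, ND1 and ND2, the first protein genes after the ribosomal RNA genes, both differed between the reagents past the threshold. ATP8, ND3, ND4L and ND4 did not pass, and ND5 and ND6 did. The other 5 mitochondrial protein genes were COX1, COX2 and COX3 of cytochrome c oxidase, CYTB of complex III and ATP6 of ATP synthase. With 13.6, 3 of them were higher and none was lower (median log2 fold change 0.25). With 13.8, 2 were higher and none was lower (0.20). Those counts stand beside 24.9% of all tested genes called higher and 25.0% lower with 13.6, and 27.5% and 27.9% with 13.8. ATP6, encoded on the mRNA of ATP8, was higher with both (0.39 ± 0.09 SE with 13.6 and 0.34 ± 0.09 with 13.8; edgeR's quasi-likelihood test, adjusted p = 0.002 and 0.00442). COX2 (0.25) and CYTB (0.35) were higher with 13.6, and COX3 (0.29) with 13.8. Of these 5, COX3 alone differed between the reagents (-0.23 ± 0.09 for 13.6 against 13.8, edgeR adjusted p = 0.0436). Neither of the 2 mitochondrial ribosomal RNAs was found among the counted genes, and the mitochondrial tRNAs were not analysed here.

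Ratios of reads within a library do not depend on how libraries are scaled. ND6 had 10.2, 7.05 and 9.91 reads for every 1000 reads of the other 7 genes in the 13.6 libraries and 7.03, 6.11 and 6.11 in the 13.8 libraries, against 9.24, 9.14 and 10.8 in the control libraries. The 13.8 libraries were below the controls and also below the 13.6 libraries, although 13.6 replicate 2 and 13.8 replicate 1 nearly met. The log2 ratio differed from control by -0.60 with 13.8 (two-sided exact permutation p = 0.1, the smallest 3 against 3 allows) and by -0.12 with 13.6 (exact permutation p = 0.8), and 13.6 differed from 13.8 by 0.48 (exact permutation p = 0.1). For all 6 knockdown libraries against control it was -0.36 (exact permutation p = 0.190). With ND5 as the only denominator the difference from control was -0.62 with 13.8 (exact permutation p = 0.1) and 0.34 with 13.6 (exact permutation p = 0.2), so that with 13.6 its sign depended on the denominator.

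Of 2 neighbours on the same strand, ND5 had 0.143, 0.140 and 0.137 reads per read of ND4 in the 13.6 libraries and 0.216, 0.233 and 0.249 in the 13.8 libraries, against 0.223, 0.204 and 0.201 in the control libraries. The 13.6 libraries stood apart below both other groups, which overlapped; this ratio was chosen after its values were seen and was not tested. The genes that share an mRNA varied less in their ratio: ND4 had 6.402 to 6.569 reads per read of ND4L with 13.6, 6.234 to 6.377 with 13.8 and 6.383 to 6.706 in controls. The 13.8 libraries lay just below all others, and the 13.6 libraries overlapped the controls. For ATP6 and ATP8 the ranges were 11.54 to 11.89 with 13.6, 11.11 to 11.49 with 13.8 and 11.32 to 12.19 in controls. Both knockdown groups overlapped the controls, and the 13.8 libraries lay below all 13.6 libraries; neither ratio was tested.

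**Figure D3:**
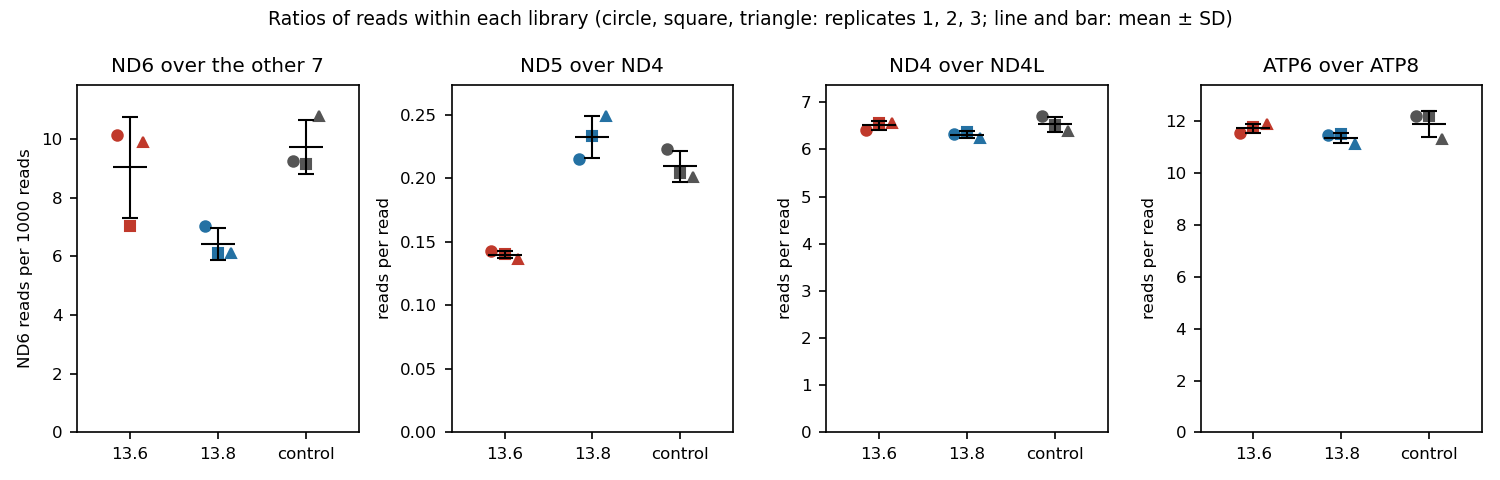
Ratios of reads within each library (y axes start at 0) by group (x axis): ND6 per 1000 reads of the other 7 genes, ND5 per ND4 read, ND4 per ND4L read and ATP6 per ATP8 read; symbols are single libraries and the line and bar give the mean ± SD of 3. ND6 is lowest with 13.8 (6.11 to 7.03), ND5 per ND4 is lowest with 13.6 (0.137 to 0.143), and ND4 per ND4L is lowest with 13.8 (6.234 to 6.377) by a small margin.

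Per kilobase of annotated length, the order of the 8 genes was nearly the same in the 3 groups. With 13.6 it ran from ND4 (4007 CPM per kb) and ND4L (2858) through ND3 (1407), ND1 (1379), ND2 (1234) and ATP8 (1089) to ND5 (427) and ND6 (179). With 13.8 it was ND4 (3574), ND4L (2626), ND1 (1929), ND2 (1590), ND3 (1542), ATP8 (1086), ND5 (630.3) and ND6 (136). In control cells it was ND4 (3302), ND4L (2343), ND1 (1493), ND3 (1166), ND2 (1105), ATP8 (819), ND5 (526) and ND6 (172). ND4, ND4L, ATP8, ND5 and ND6 held their places, and the neighbours whose ranges overlapped were ND3, ND1 and ND2 with 13.6, ND2 and ND3 with 13.8, and ND3 and ND2 in control cells. The top gene exceeded the bottom gene 22.4-fold with 13.6, 26.3-fold with 13.8 and 19.2-fold in control cells. With all its reads divided by only the bases it does not share with ATP6, ATP8 was at 1400 CPM per kb with 13.6. It was then at 1396 with 13.8 and 1053 in control cells. Its range then overlapped its neighbours in the order, ND3 and ND1 with 13.6 and ND2 in control cells. Any reads assigned to ATP8 in the shared bases stayed in these values, so its level per kilobase depends on how such reads were assigned, which is not known here. The lengths are those of GENCODE on GRCh38, while the reads were counted on hg19.

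**Figure D4:**
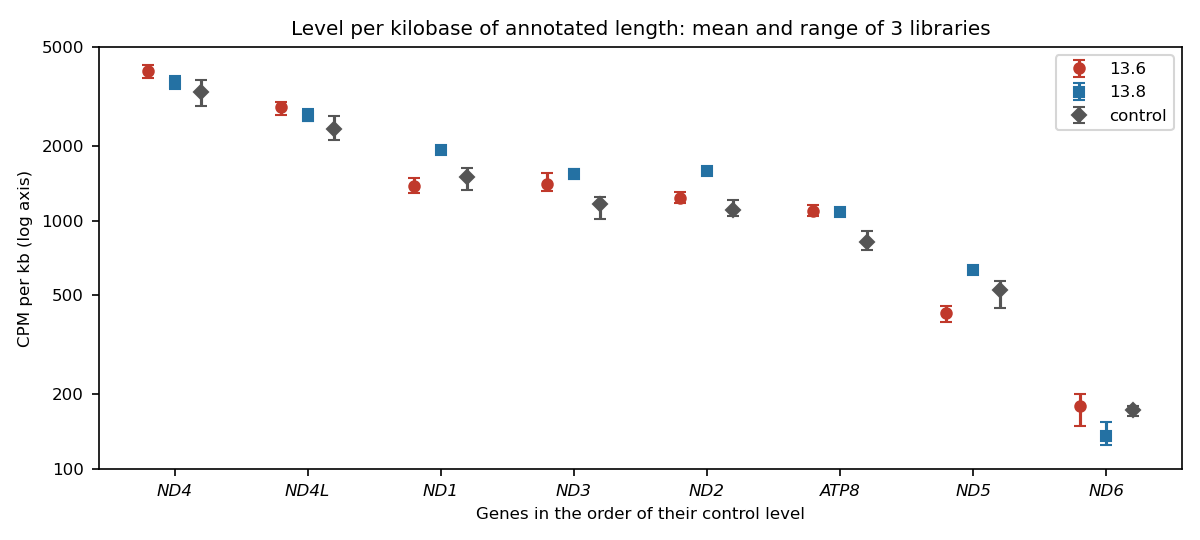
Level per kilobase of annotated length (y axis, CPM per kb, log axis) of the 8 genes in the order of their control level (x axis); symbols are the mean of 3 libraries with 13.6, 13.8 or control DsiRNA and bars run from the lowest to the highest library. ND4 leads and ND6 is last in every group, and 13.8 lies above the rest at ND1, ND2 and ND5.

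How alike the 8 genes were over the 9 libraries was described by Pearson's r of the log2 CPM of each with the mean of the other 7, which share libraries and scaling. It was 0.847 for ND2, 0.802 for ATP8, 0.684 for ND3, 0.660 for ND4L, 0.577 for ND1 and 0.529 for ND4, but 0.244 for ND5 and -0.608 for ND6. Outside the mitochondrial genome, the genes whose log2 CPM was most like the mean of the 8, among those searched with a mean of at least 10 CPM, were WDFY2 (Pearson's r = 0.973), VASH1 (0.953), CCNI (0.949), SND1 (0.944) and GRAMD1A (0.941), each over 9 libraries. Symbols spelled like unnamed loci, antisense RNAs or pseudogenes were left out of the search, and this spelling rule also dropped some protein genes such as TYRP1. CCNI, a gene of the cyclin family, averaged 198 CPM with 13.6, 222 CPM with 13.8 and 168 CPM in control cells. Nuclear DNA holds copies of mitochondrial genes that can share reads with them; the table used here has 10 entries for such copies, all of the ribosomal MTRNR2L group, with 0 to 318 reads each summed over the 9 libraries, and no source used here says how reads with several matches were handled.

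The nuclear genes that make and keep mitochondrial RNA were called in part and in both directions; their counts, and those of the nuclear subunit genes, stand beside 24.9% of all genes called higher and 25.0% lower with 13.6, and 27.5% higher and 27.9% lower with 13.8. Of 10 mitochondrial transcription genes, 4 were higher and 1 lower with 13.6 (median log2 fold change 0.14), and 3 were higher and 1 lower with 13.8 (0.02). POLRMT, the polymerase, was higher with both (0.34 ± 0.07 SE with 13.6 and 0.31 ± 0.07 with 13.8; edgeR's quasi-likelihood test, adjusted p = 0.00106 and 0.00176). MTERF, the transcription termination factor, was higher with both too (0.61 and 0.31). TFAM, which packages the mitochondrial DNA and activates its promoters, was higher with 13.6 (0.35 ± 0.07, edgeR adjusted p = 0.00062) and lower with 13.8 (-0.32 ± 0.07, edgeR adjusted p = 0.00111). TFB2M, which opens the promoter, was higher with 13.6 (0.45) and at -0.11 with 13.8 (edgeR adjusted p = 0.264).

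Of 20 genes of mitochondrial RNA processing and stability, 6 were higher and 5 lower with 13.6 (median 0.12), and 2 were higher and 6 lower with 13.8 (-0.14). PNPT1, the mitochondrial RNA-degrading exonuclease, was higher with both (0.63 and 0.20). FASTKD5, which is needed to process precursors at ends without a tRNA, was lower with both (-0.67 ± 0.07 SE and -0.84 ± 0.07; edgeR's quasi-likelihood test, adjusted p = 4.81e-06 and 3.94e-07). GRSF1, an RNA-binding protein of mitochondrial RNA granules that binds G-rich light-strand RNA such as ND6, averaged 234 CPM with 13.6 and 105 CPM with 13.8, against 196 CPM in control cells. It was higher with 13.6 (0.26 ± 0.07, edgeR adjusted p = 0.00597) and lower with 13.8 (-0.90 ± 0.07, edgeR adjusted p = 1.45e-07). PDE12, which removes poly(A) tails, was lower with 13.8 (-0.57) and at 0.01 with 13.6 (edgeR adjusted p = 0.933). LRPPRC, which stabilises heavy-strand mRNAs and was picked for mention after its values were seen, was lower with 13.6 (-0.49 ± 0.07, edgeR adjusted p = 5.91e-05) and at 0.09 ± 0.07 with 13.8 (edgeR adjusted p = 0.303).

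Of 11 genes of mitochondrial DNA maintenance, 3 were higher and 1 lower with 13.6 (median 0.06), and 3 were higher and 5 lower with 13.8 (-0.13). RRM2B, which supplies deoxynucleotides outside S phase, was higher with 13.6 (0.36) and lower with 13.8 (-1.16 ± 0.07 SE; edgeR's quasi-likelihood test, adjusted p = 3.3e-08). The helicase gene C10orf2, now TWNK, was higher with 13.6 (0.39) and lower with 13.8 (-0.22). MGME1, a mitochondrial exonuclease, was lower with both (-0.38 and -0.73), and DNA2, a nuclease and helicase, was higher with 13.6 (0.45) and at -0.13 with 13.8 (edgeR adjusted p = 0.132).

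The nuclear partners of the ND subunits were called in both directions. Over all genes, 24.9% were called higher and 25.0% lower with 13.6, and 27.5% and 27.9% with 13.8. Of 37 nuclear complex I subunit genes, 3 were higher and 11 lower with 13.6 (median log2 fold change -0.11), and 10 were higher and 3 lower with 13.8 (0.20). In the direct comparison 3 were higher and 19 lower with 13.6 than with 13.8 (median -0.30), beside 30.9% of all genes called higher and 30.2% lower; these counts were not tested as a group. NDUFB10, an accessory subunit of the membrane arm, averaged 28.5 CPM with 13.6 and 84.9 CPM with 13.8, against 85.3 CPM in control cells (-1.58 ± 0.11 SE with 13.6 and -0.01 ± 0.11 with 13.8; edgeR's quasi-likelihood test, adjusted p = 1.88e-07 and 0.965). NDUFS1, the large iron-sulfur subunit, was lower with both (-0.18 and -0.65), and NDUFA5 was higher with both (0.83 and 1.00).

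Of 16 complex I assembly genes, 2 were higher and 5 lower with each reagent (medians -0.10 with 13.6 and -0.02 with 13.8). ACAD9 (-0.84 with 13.6 and -0.35 with 13.8), FOXRED1 (-0.25 and -0.41) and NDUFAF7 (-0.45 and -0.34) were lower with both, and ECSIT was higher with both (0.45 each). Of 15 nuclear ATP synthase subunit genes, the partners of ATP8, 1 was higher and 5 lower with 13.6 (median -0.16), and 5 were higher and 3 lower with 13.8 (0.12). ATP5F1, now ATP5PB, which encodes the peripheral stalk subunit b that ATP8 lies beside, was higher with both (1.24 ± 0.06 SE and 1.47 ± 0.06; edgeR's quasi-likelihood test, adjusted p = 8.8e-09 and 1.14e-09). The catalytic beta subunit gene ATP5B was lower with both (-0.37 and -0.65). ATP5C1, the gamma subunit gene (-0.82), and ATP5D, the delta subunit gene (-0.71), were lower with 13.6 and were at 0.12 (edgeR adjusted p = 0.369) and 0.06 (edgeR adjusted p = 0.597) with 13.8.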

How the data were processed

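Total RNA of 501mel cells was measured in 9 libraries: 3 with DsiRNA 13.6 and 3 with DsiRNA 13.8 against TBX3, and 3 with the control DsiRNA NC1. Per the labels' protocols, libraries were made with a directional kit. In the submitters' processing notes, reads were handled with STAR and HTSeq, besides cutadapt, FastQC and DESeq2, on hg19; tool versions, gene annotation and counting settings appear in no source used here. One deposited table holds raw read counts per gene symbol. A second deposited table holds log2 values that the authors made by scaling the counts; in 25363 genes present in both, the log2 values gave back the counts within 0.00202 of a read, and the log2 table was not used further. Of 25398 entries, 16 exact repeats were removed, which left 25382; 28 entries named as dates (0.200% of counts) stayed in the totals. No columns were left unmapped.

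Groups were taken from the sample titles. Genes were kept by filterByExpr (minimum count 10), which left 14731, and all 9 libraries were fitted in edgeR 4.0.16 (R 4.3.3) with TMM scaling and the quasi-likelihood test; p-values were adjusted over all 14731 genes by Benjamini-Hochberg, and a gene was called at an adjusted p under 0.05. The comparisons were 13.6 and 13.8 against control, their mean against control, and 13.6 against 13.8. CPM values use TMM-scaled library sizes. The SE of a log2 fold change was derived as its absolute value divided by the square root of the F statistic of the quasi-likelihood test. A gene is said to rise or fall, or to be higher or lower, where it was called. Read shares and ratios were compared by two-sided exact permutation tests (scipy 1.17.1). The edgeR step was tested on simulated counts with known changes. Recovery of calls was required there only for log2 changes larger than any that the 8 genes showed. Coordinates, lengths and sequences came from GENCODE release 29 (GRCh38), in which all 8 genes were matched; no coordinates were converted. Replicates of a group differed by more than sampling noise in every pair (chi-square per degree of freedom 4.98 to 43.1). The highest values were those of control replicate 3 with control replicates 1 (43.1) and 2 (34.5).

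The 8 genes and the gene lists were chosen with earlier results of these data known. Named were the 8 genes, TBX3, the other 5 mitochondrial protein genes, entries for nuclear copies, up to 4 genes per nuclear list with the smallest adjusted p in 13.6 or 13.8 against control, and the 5 genes most like the mean of the 8. One gene that this rule names is not reported here. Alternatives were DESeq2 1.42.0, limma-voom (limma 3.58.1), other scalings and filters, only the groups compared, a replicate block, an adjusted p under 0.01, and each library left out in turn.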

Additional observations from a re-analysis of the deposited data

Results flagged for a closer look

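For 4 genes the effects of 13.6 and 13.8 differed from each other, by the direct comparison of 13.6 with 13.8 in edgeR's quasi-likelihood test. In that comparison 61.1% of all tested genes were called, so a difference of this kind was common. The effect of 13.6 minus that of 13.8, on the log2 scale, was -0.48 for ND1 (adjusted p = 0.000188) and -0.37 for ND2 (adjusted p = 0.00069), both at the start of the heavy-strand protein genes. It was -0.56 for ND5 (adjusted p = 0.000142), the gene at the far end of that strand's ND genes, and 0.39 for ND6 (adjusted p = 0.0065), which lies opposite on the light strand. COX3, which is not among these genes and lies between ND2 and ND5, also differed (-0.23, edgeR adjusted p = 0.0436). Over the alternative fits in edgeR, DESeq2 and limma-voom and the fits with 1 library left out, the lowest and highest adjusted p were 6.25e-08 and 0.00202 for ND1, 3.49e-06 and 0.00574 for ND2, 3.69e-08 and 0.00148 for ND5 and 0.000751 and 0.0335 for ND6.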

How the results depend on the processing

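The counts of called genes among the 8 stayed within 1.5 times of the reported ones under DESeq2, limma-voom, 3 other scalings, 2 other filters and a fit of only the groups compared. The exceptions were 13.6 against control at an adjusted p under 0.01, with 1 of the 8 called in place of 5 (over all 14731 genes 5370 in place of 7357), and leaving out libraries, where that count ran from 2 (without 13.6 replicate 2) to 5. The difference of ATP8 between 13.6 and 13.8 lay at 0 and changed sign with library totals alone (-0.0411), scaling by nuclear genes only (-0.000456), a mean of at least 50 reads (-0.0244), and left-out libraries (-0.0373 to 0.0293). Leaving out libraries also changed the sign of values that were not called: ND6 with 13.6 (-0.0377 to 0.172), ND5 for the mean of both reagents (-0.130 to 0.0441) and the log2 ratio of ND6 to the other 7 genes with 13.6 (-0.214 to 0.0491), which was 0.34 with ND5 as denominator. The cause was not tested. ND4 for the mean of both reagents passed under DESeq2 (adjusted p = 0.0333), limma-voom (0.0397), no filter on low counts (0.0360) and a mean of at least 50 reads (0.0390), and ND4 in 13.6 against 13.8 passed with only those groups (0.0377). Deviations from group means correlated at -0.179 to 0.187 in 9 same-numbered pairs of libraries, 3 of them over 0.1. In 18 differently numbered pairs the correlations were -0.248 to 0.187, 3 of them also over 0.1. These values do not settle whether replicate numbers pair the libraries. With the number as a replicate block in edgeR, 6 of the 8 genes were called with 13.6, 7 with 13.8, 5 for the mean and 4 between the reagents, while calls over all genes also increased, to 8010, 8803, 8033 and 9581 against 7357, 8169, 7398 and 8995 without the block; the calls gained were ND2 with 13.6 (adjusted p = 0.0452), ND4L with 13.8 (0.0409) and ND4 for the mean (0.0126). Over all alternatives and left-out libraries the adjusted p of these borderline values ran from 0.0126 to 0.22 (ND4, mean), 0.0377 to 0.327 (ND4, 13.6 against 13.8), 0.0211 to 0.287 (ND2 with 13.6) and 0.0194 to 0.34 (ND4L with 13.8). Depth did not limit these genes, but 3 libraries a group cannot give an exact permutation p below 0.1.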
